A study of Mus musculus with 18 samples.

Results

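The potassium channel genes described here were the protein-coding genes whose symbol starts with Kcn followed by a letter, in mRNA profiles of sorted mouse retinal cells. The rule found 94 such genes among 34385 genes in the knockdown table and the same 94 among 34396 genes in the overexpression table. They encode the subunits that form the potassium pore, silent subunits that modify it, and auxiliary subunits.

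Potassium channels let potassium ions leave the cell and so hold or restore a negative membrane voltage. In rods and cones a voltage-gated channel of the inner segment that holds the silent subunit Kv8.2 (Kcnv2) carries potassium out while cyclic-nucleotide-gated channels of the outer segment let sodium and calcium in, and the sodium-potassium ATPase returns the ions. In Mueller glia the inward rectifier Kir4.1 (Kcnj10) takes up potassium that neurons release. KCNE proteins, the family of Kcne1l and Kcne2, are small membrane proteins with a single membrane-spanning stretch that bind voltage-gated pore subunits and change how these open and traffic.

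All samples came from retinas of ICR mice, an outbred stock, electroporated at postnatal day 0.5 with a plasmid of interest and an EGFP plasmid, then cultured as explants for 3 days, after which EGFP-positive cells were sorted. The groups, with 3 libraries each, were Nmnat1 knockdown and Nmnat2 knockdown with a scramble plasmid as control, and Nmnat1 overexpression and Nmnat2 overexpression with an empty vector as control. Nmnat1 and Nmnat2 encode enzymes that make NAD. EGFP marks cells that took up the marker plasmid, and the labels give neither the promoters of the plasmids nor the number of retinas per library. The labels do not state whether the 3 libraries of a group derive from different animals or cultures, so the p-values speak only for variation among these libraries, some or all of which may be technical. Levels are given in parts per 1000000 of a library's summed length-scaled signal (ppm), fold changes as log2 with their SE on the log2(ppm + 1) scale, and a gene was called at a limma p under 0.05 after Benjamini-Hochberg adjustment over all genes tested.

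For a transcript of 1 kb, 1 ppm stood for about 12.5 to 20.8 reads in the knockdown libraries and 11.2 to 16.6 in the overexpression libraries, with relative depths of 0.777 to 1.35 and 0.813 to 1.15. Nmnat1 averaged 7.80 ppm in Nmnat1 knockdown cells and 19.0 ppm in scramble cells (ratio 0.410, exact permutation p = 0.1, which is as low as 6 libraries in 2 groups of 3 can give). Nmnat2 averaged 0.927 ppm in Nmnat2 knockdown cells and 2.96 ppm in scramble cells (exact permutation p = 0.3), so the target gene did not check the labels of the Nmnat2 knockdown group. Nmnat1 was at 19325 ppm in Nmnat1 overexpression cells and 20.8 ppm with the empty vector, and Nmnat2 at 21581 ppm in Nmnat2 overexpression cells and 1.89 ppm with the empty vector. Library N2_2 of the Nmnat2 knockdown stood apart, at 129 on the first principal component of its table against -31.2 to -5.83 for the other 8 libraries. In the overexpression table the libraries numbered 1 (N1_1, N2_1 and v1) lay at 33.9, 91.4 and 24.5 and the others between -49.99 and -4.14. Calls are therefore given with and without these libraries. Rod genes as a sum were abundant in every library, with 9 genes summing to 1866 to 6213 ppm. Astrocyte and red blood cell markers (2 genes each) summed to at most 4.06 and 7.73 ppm. The 8 cone genes summed to 806 to 4120 ppm, but most of that was Gngt2, at 752 ppm or more in every library. Other cone genes were low, such as Arr3 and Pde6c, at most 9.73 and 5.57 ppm.

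The upstream sequences of Kcne1l and Kcne2 are shown because these were the members with a call against a control. They are RefSeq promoter sequences on GRCm38.p6, 5′ to 3′ on the gene's strand, cut to the bases before the gene's start in GENCODE release M21, with capitals for a match to the GC box GGGCGG on either strand.
Kcne1l, chrX:142306295-142306448, minus strand: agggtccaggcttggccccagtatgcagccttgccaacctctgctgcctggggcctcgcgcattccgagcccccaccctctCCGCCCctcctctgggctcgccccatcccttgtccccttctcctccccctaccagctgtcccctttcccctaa
Kcne2, chr16:92292139-92292388, plus strand: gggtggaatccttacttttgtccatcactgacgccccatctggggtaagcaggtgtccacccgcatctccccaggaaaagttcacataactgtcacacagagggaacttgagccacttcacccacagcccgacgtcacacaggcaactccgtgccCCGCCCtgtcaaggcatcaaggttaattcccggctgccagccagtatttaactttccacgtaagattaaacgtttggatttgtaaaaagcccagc
In the windows of 250 bases before the RefSeq start, the GC box began 169 bases before the start of Kcne1l and 95 bases before the start of Kcne2. A second RefSeq start of Kcne2 lies inside the gene, and its window (chr16:92295366-92295615) held no match. The GC box was found in 42.6% of 21263 promoter windows of protein-coding genes and in 44.7% of 94 windows of 69 potassium channel genes. TAATCC, the core that the photoreceptor factors CRX and OTX2 bind, was in 5.82% of all windows and in 2 of the 94. TGCTGA, a half-site of NRL and other large MAF factors, was in 14.9% of all windows and in 13 of the 94. Neither motif was in the Kcne1l or Kcne2 windows on either strand.

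By group mean, Kcne1l was the most abundant potassium channel gene in each of the 6 groups, although in Nmnat2 knockdown cells that rank rested on library N2_2. It encodes KCNE5, an auxiliary subunit known from expression studies to inhibit KCNQ1 channels. In scramble cells it averaged 195 ± 11.9 ppm (SD, n = 3), where the next member, Kcnab2, averaged 45.1 ± 9.04 and the median member 1.38 ppm. With the empty vector it averaged 220.1 ± 9.98 ppm, Kcnab2 42.7 ± 2.59 and the median member 1.12 ppm. In Nmnat2 knockdown cells the means were 52.8 ± 31.1 ppm for Kcne1l and 50.2 ± 28.9 ppm for Kcnab2, and in N2_1 and N2_3 Kcnab2 was the higher, at 69.5 and 64.3 ppm against 33.1 and 36.8 ppm for Kcne1l. In scramble cells 54 members reached 1 ppm, 25 reached 5 ppm, 13 reached 10 ppm and 7 reached 20 ppm, and with the empty vector the counts were 51, 23, 12 and 6. Kcne1l was the single member above 50 ppm in both controls. At the low end, 15 members stayed below 1 ppm in all 18 libraries, among them Kcnd2, Kcnj2, Kcnk5 and Kcnk18. The tests kept genes that reached 1 ppm in 3 or more libraries per table, a filter passed by 53 members in both tables, by 4 in the knockdown table alone, by 2 in the overexpression table alone and by 35 in neither.

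After Kcne1l, the members with the highest mean level were largely the same in both controls. Kcnab2, which encodes a cytoplasmic beta subunit of Kv1 channels, was second in both. Kcnmb4, the beta4 subunit of the calcium-activated BK channel, averaged 33.1 ± 2.35 ppm in scramble cells and 22.2 ± 3.46 ppm with the empty vector, and its pore subunit Kcnma1 averaged 21.0 ± 1.23 and 19.98 ± 5.90 ppm. The small-conductance channel gene Kcnn1, the tandem-pore channel gene Kcnk1 (TWIK1), Kcnv2, Kcne2 and Kcnab3 made up the rest of the first 9 in both controls, between 13.2 and 32.5 ppm. The tenth was Kcnd3 (Kv4.3) at 11.7 ± 4.70 ppm in scramble cells and Kcnb2 (Kv2.2) at 13.1 ± 0.86 ppm with the empty vector. From Kcnn1 down in scramble cells, and from Kcnk1 down with the empty vector, neighbours in this order differed by less than the larger of their SDs. Kcne1l lay above Kcnab2 by far more than the SD of either.

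Kcne1l (ENSMUSG00000090122.3, chrX:142304752-142306294, minus strand, GRCm38, 1 transcript) lay on opposite sides of the scramble control in the knockdown arms. It was at 465, 539 and 517 ppm in the Nmnat1 knockdown libraries, at 33.1, 88.6 and 36.8 ppm in the Nmnat2 knockdown libraries, and at 198, 183 and 206 ppm in the scramble libraries. All Nmnat1 knockdown libraries lay above, and all Nmnat2 knockdown libraries below, every scramble library. With 654 to 11256 reads per library by the read steps, counting noise was small beside these differences. In Nmnat2 knockdown cells Kcne1l fell, with a ratio of means of 0.270 (log2 fold change -2.01 ± 0.31, adjusted p = 0.0336), and without library N2_2 the change was -2.45 (adjusted p = 1.70e-06). Under 18 alternative settings or library sets it was called in 5, with adjusted p up to 0.241. The call was lost without a filter, with median-of-ratios scaling, with the 2 groups alone, without the trend and with the replicate block. It was also lost when any single library other than N2_2 was left out. In Nmnat1 knockdown cells the ratio was 2.59 (1.37 ± 0.31), which was not called (adjusted p = 0.146). Without library N2_2, which enters that comparison only through the shared estimate of the spread, the adjusted p was 7.07e-05. The arms themselves differed by 3.38 ± 0.31 (Nmnat1 knockdown over Nmnat2 knockdown, adjusted p = 0.00130). The exact permutation p was 0.1 for each arm against scramble.

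**Figure D1:**
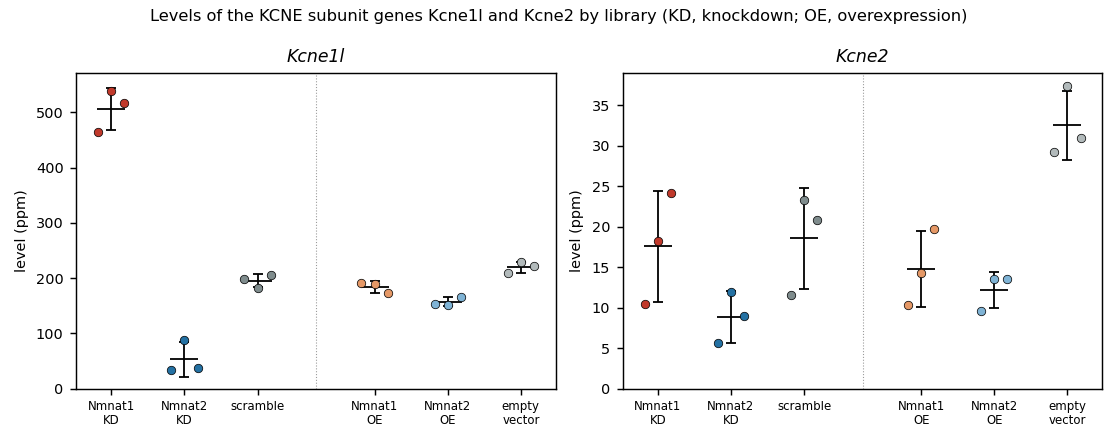
Level in ppm (vertical axes, linear from 0) of Kcne1l and Kcne2 in each library (points), with the mean and SD of each group of 3 (bars), for the knockdown table (left of the dotted line) and the overexpression table. Kcne1l lies at 465 to 539 ppm in Nmnat1 knockdown, 33.1 to 88.6 ppm in Nmnat2 knockdown and 183 to 206 ppm in scramble libraries, and Kcne2 lies below every empty-vector library in both overexpression groups.

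Under overexpression Kcne1l lay closer to its control. It was at 192, 189.6 and 172 ppm in Nmnat1 overexpression libraries, at 153, 152 and 166 ppm in Nmnat2 overexpression libraries, and at 209, 229 and 222 ppm with the empty vector. Both groups lay wholly below the empty vector, and the 2 groups did not overlap each other. The ratio of means was 0.839 for Nmnat1 overexpression (log2 fold change -0.25 ± 0.09, adjusted p = 0.369) and 0.714 for Nmnat2 overexpression (-0.48 ± 0.09, adjusted p = 0.0509), so neither was called. Without the libraries numbered 1 the adjusted p was 0.0454 and 0.0112, with changes of -0.32 and -0.50. With a replicate block, a term for the library number that the main fit left out, the adjusted p was 0.265 and 0.0407. Nmnat1 and Nmnat2 overexpression differed by 0.23 ± 0.09 (adjusted p = 0.953).

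Kcne2 (ENSMUSG00000039672.12, chr16:92292389-92298129, plus strand) encodes MiRP1, an auxiliary subunit best known with KCNQ1 in stomach and thyroid epithelium and with HERG in the heart. It was at 10.4, 14.3 and 19.7 ppm in Nmnat1 overexpression libraries, at 9.62, 13.5 and 13.5 ppm in Nmnat2 overexpression libraries and at 29.2, 37.4 and 30.9 ppm with the empty vector. Both overexpression groups lay below every empty-vector library. In Nmnat2 overexpression cells Kcne2 fell, with a ratio of means of 0.375 (-1.35 ± 0.23, adjusted p = 0.0397). In Nmnat1 overexpression cells the ratio was 0.455 (-1.12 ± 0.23), which was not called (adjusted p = 0.111). Without the libraries numbered 1 the changes were -1.27 and -0.98 for Nmnat2 and Nmnat1 overexpression, with adjusted p of 0.00998 and 0.0221. With the replicate block the adjusted p was 0.0143 for Nmnat2 and 0.0346 for Nmnat1 overexpression. The exact permutation p was 0.1 for either group. The call in Nmnat2 overexpression cells was lost when any one of v1, v2, v3, N1_2, N2_2 or N2_3 was left out (adjusted p 0.0758 to 0.232). It was also lost with median-of-ratios scaling (adjusted p = 0.0544), without a filter and without the trend, and held in 10 of 19 alternatives.

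Under knockdown Kcne2 was at 10.5, 18.2 and 24.1 ppm in Nmnat1 knockdown libraries, at 5.58, 11.9 and 8.96 ppm in Nmnat2 knockdown libraries and at 11.5, 23.3 and 20.9 ppm in scramble libraries. These ranges overlapped, by a narrow margin for the Nmnat2 knockdown. The changes were -0.09 ± 0.40 (adjusted p = 0.956) in Nmnat1 knockdown cells and -0.99 ± 0.40 (adjusted p = 0.243) in Nmnat2 knockdown cells. Of the other Kcne genes, Kcne3 passed the filter in the knockdown table without a call, and Kcne4 stayed below 1 ppm in all libraries.

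Summed over the 94 members, the level was 813 to 946 ppm in Nmnat1 knockdown libraries, 368 to 470 ppm in Nmnat2 knockdown libraries and 592 to 625 ppm in scramble libraries. Kcne1l made up 54.7% to 58.2% of that sum in Nmnat1 knockdown, 7.28% to 24.1% in Nmnat2 knockdown and 30% to 33.4% in scramble libraries. Without Kcne1l the sums were 348 to 429, 279 to 433 and 394 to 426 ppm, so that the groups overlapped, and the lowest value was that of library N2_2. In the overexpression table the sum without Kcne1l was 402 to 418 ppm in Nmnat1 overexpression, 419 to 450.2 ppm in Nmnat2 overexpression and 396 to 412 ppm in empty-vector libraries. The Nmnat2 overexpression libraries thus lay just above the empty-vector libraries.

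**Figure D2:**
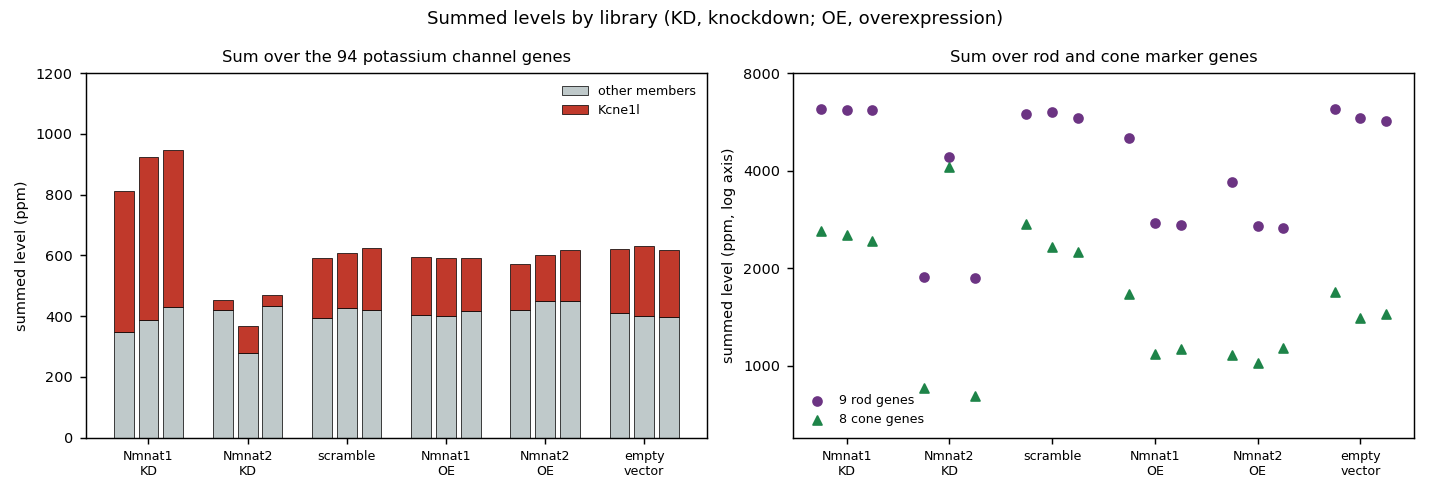
Left, summed level of the 94 potassium channel genes in ppm per library, split into Kcne1l (red) and the other 93 members together (grey); right, summed level in ppm on a log axis of 9 rod and 8 cone marker genes per library. The total is highest in Nmnat1 knockdown (813 to 946 ppm) and lowest in Nmnat2 knockdown (368 to 470 ppm), with most of the difference in the Kcne1l segment.

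In Nmnat1 knockdown cells no potassium channel gene was called against scramble. Of the 57 members that passed the filter of 1 ppm in 3 of 9 libraries, 0 were called by limma, where 0.144% of all 22233 genes were, and 12 had an unadjusted p under 0.05, where 10.5% of all genes did. These were 8 higher, against 4.88% of all genes, and 4 lower, against 5.64%. Without library N2_2, 6 of the 57 were called, beside 1802 of all 22233 genes. Kcne1l, Kcnd3 and Kcnk3 were higher and Kcnj10, Kcna2 and Kcnmb4 lower. In 10 members every Nmnat1 knockdown library lay above the scramble libraries and in 8 every one lay below, where 24.8% of all genes did not overlap, 12.8% higher and 12% lower. The median log2 fold change was -0.18 over the members and -0.00 over all genes tested. A member that passed the filter through 1 group alone had to differ, so these shares describe the tested members and not the family.

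Among voltage-gated pore subunits, Kcnd3, which encodes the A-type channel Kv4.3, was at 22.8, 32.0 and 33.2 ppm in Nmnat1 knockdown libraries, at 30.5, 15.1 and 31.1 ppm in Nmnat2 knockdown libraries and at 16.1, 12.3 and 6.72 ppm in scramble libraries. Both knockdown groups were above scramble except for library N2_2, which overlapped it. Changes were 1.31 ± 0.37 (adjusted p = 0.232, and 0.0196 without N2_2) for Nmnat1 knockdown and 1.07 ± 0.37 (adjusted p = 0.189, and 0.0146 without N2_2) for Nmnat2 knockdown. Kcna2, which encodes Kv1.2, went the other way in Nmnat1 knockdown libraries, with 1.83, 2.82 and 3.13 ppm, against 7.61, 8.96 and 5.35 ppm in scramble libraries (-1.20 ± 0.52, adjusted p = 0.446, and 0.0360 without N2_2). In Nmnat2 knockdown libraries it was at 11.9, 2.4996 and 13.2 ppm, with N2_2 alone below the scramble range. Kcnc2 (Kv3.2) was at 5.596, 2.90 and 9.33 ppm in Nmnat1 knockdown libraries and at 2.12, 1.11 and 2.86 ppm in scramble libraries (1.13 ± 0.46, adjusted p = 0.428).

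The silent subunit gene Kcnv2 was at 9.46, 6.30 and 9.03 ppm in Nmnat2 knockdown libraries, at 19.5, 20.2 and 15.8 ppm in Nmnat1 knockdown libraries and at 16.6, 27.1 and 24.5 ppm in scramble libraries. The Nmnat2 knockdown libraries were below all others of the table. The change was -1.34 ± 0.28 in Nmnat2 knockdown cells (adjusted p = 0.0710, and 0.00929 without N2_2) and -0.26 ± 0.28 in Nmnat1 knockdown cells (adjusted p = 0.777). The electrically silent Kcng4 was the other modifier subunit above the filter, at 1.19, 0.105 and 0.733 ppm in Nmnat2 knockdown and at 2.01, 1.87 and 2.16 ppm in scramble libraries (-0.90 ± 0.38, adjusted p = 0.262).

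In Nmnat2 knockdown cells 1 of 57 tested members was called against scramble, Kcne1l, where 0.436% of all genes were called and 0.36% were called lower. At an unadjusted p under 0.05 there were 12 members, 2 higher and 10 lower, where 16.8% of all genes passed, 3.41% higher and 13.4% lower. In 3 members every Nmnat2 knockdown library lay above the scramble libraries and in 10 every one lay below, where 21.9% of all genes did not overlap, 4.73% higher and 17.2% lower. The median log2 fold change was -0.19 over the members and -0.23 over all genes tested, so the table's own shift was as large as that of the family. Under median-of-ratios scaling the median of all genes was -0.05 and Kcne1l changed by -1.77 (adjusted p = 0.0716). Without library N2_2, 7 of the 57 members were called, beside 3331 of all 22233 genes. Kcnd3, Kcnk3 and Kcnn1 were higher and Kcne1l, Kcnv2, Kcnq5 and Kcnj13 lower. When any single library other than N2_2 was left out, the call of Kcne1l was lost (adjusted p 0.0891 to 0.140).

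Kcnq5, one of the genes for the slow M-type current, was at 0.853, 3.08 and 1.25 ppm in Nmnat2 knockdown libraries, at 5.16, 4.403 and 4.41 ppm in Nmnat1 knockdown libraries and at 17.8, 6.68 and 6.17 ppm in scramble libraries. Both knockdown groups lay below scramble, and the first scramble library was far above the other two. The change was -1.98 ± 0.46 in Nmnat2 knockdown cells (adjusted p = 0.0932, and 0.00752 without N2_2) and -0.84 ± 0.46 in Nmnat1 knockdown cells (adjusted p = 0.558). The other tested Kcnq genes did not separate the knockdown groups from scramble. The 6 tested Kcnh genes encode members of the EAG and HERG families. In Nmnat1 knockdown cells 1 of them (Kcnh3, named after its values were seen) lay wholly above scramble, where 12.8% of all genes did. In Nmnat2 knockdown cells 0 of these 6 genes lay wholly to one side, where 21.9% of all genes did. The most abundant, Kcnh2 (HERG), was at 6.94, 12.4 and 7.99 ppm in Nmnat1 knockdown libraries, at 11.2, 6.54 and 8.78 ppm in Nmnat2 knockdown libraries and at 8.63, 6.16 and 6.94 ppm in scramble libraries.

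Among inward rectifiers, the glial gene Kcnj10 (chr1:172341210-172374085, plus strand) was at 3.79, 1.88 and 1.82 ppm in Nmnat1 knockdown libraries, at 11.9, 0.89995 and 10.4 ppm in Nmnat2 knockdown libraries and at 8.27, 7.55 and 8.66 ppm in scramble libraries. Nmnat1 knockdown lay below scramble throughout (-1.43 ± 0.64, adjusted p = 0.472, and 0.0185 without N2_2). In the Nmnat2 knockdown, N2_2 was the lowest library of the table and the other 2 were above scramble. Mueller glia markers moved with it in Nmnat1 knockdown cells: 6 of 6 tested markers lay wholly below scramble, where 12% of all genes did. Of these markers 1 was called (Crym), where 0.144% of all genes were. The 7 genes summed to 2476 to 2605 ppm against 4716 to 5402 ppm in scramble libraries. In Nmnat2 knockdown libraries that sum was 2005 to 3234 ppm, with 2 called lower (Apoe and Crym), where 0.36% of all genes were. Apoe made up most of it, at 2196, 1514 and 2110 ppm in Nmnat2 knockdown libraries and 3531, 3972 and 4227 ppm in scramble libraries. The list was not uniformly low there. Dkk3 was at 360, 38.9 and 364 ppm in Nmnat2 knockdown libraries and 164, 197 and 175 ppm in scramble libraries, above scramble in N2_1 and N2_3 and lowest in N2_2, as Kcnj10 was. Glul was at 136, 159 and 145 ppm in Nmnat2 knockdown libraries and 138, 135 and 134 ppm in scramble libraries. Their part in the level of Kcnj10 was not tested. In such bulk samples fewer cells of a type and less RNA per cell cannot be told apart.

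Of the tandem-pore genes, Kcnk3, which encodes the acid-sensitive background channel TASK1, was at 10.8, 12.8 and 17.96 ppm in Nmnat1 knockdown libraries, at 13.0, 15.5 and 20.3 ppm in Nmnat2 knockdown libraries and at 4.79, 5.51 and 7.02 ppm in scramble libraries. Both knockdown groups lay above scramble in every library. Changes were 1.12 ± 0.30 (adjusted p = 0.217, and 0.0349 without N2_2) and 1.34 ± 0.30 (adjusted p = 0.0883, and 0.0148 without N2_2) for Nmnat1 and Nmnat2 knockdown. Both changes are measured from the same 3 scramble libraries. Of the 5 tested tandem-pore genes, 3 lay wholly above scramble in Nmnat1 knockdown cells (Kcnk2, Kcnk3 and Kcnk7), where 12.8% of all genes did. Kcnk2 and Kcnk7 were named after their values were seen, and reached at most 3.41 and 2.76 ppm. The most abundant of the family, Kcnk1, overlapped scramble in both arms.

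The BK subunit genes Kcnma1 and Kcnmb4 differed in pattern. Kcnma1, the pore, was at 11.6, 14.7 and 18.1 ppm in Nmnat1 knockdown libraries, at 15.3, 16.1 and 13.63 ppm in Nmnat2 knockdown libraries and at 21.7, 21.7 and 19.6 ppm in scramble libraries, below scramble in both arms without a call (-0.49 ± 0.24 and -0.46 ± 0.24, adjusted p = 0.514 and 0.363). Kcnmb4 was at 14.5, 23.5 and 21.0 ppm in Nmnat1 knockdown libraries, at 34.9, 51.1 and 40.8 ppm in Nmnat2 knockdown libraries and at 35.3, 30.6 and 33.4 ppm in scramble libraries. It was below scramble in Nmnat1 knockdown (-0.75 ± 0.24, adjusted p = 0.314, and 0.0369 without N2_2) and overlapped it in Nmnat2 knockdown (0.33 ± 0.24, adjusted p = 0.530).

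Between the knockdown arms 2 of the 57 tested members were called, both higher in Nmnat1 knockdown cells, where 2.06% of all genes were called and 1.34% were called higher. At an unadjusted p under 0.05 there were 15, where 16.4% of all genes passed. Beside Kcne1l, the other was Kcnab3, a beta subunit of Kv1 channels, at 21.2, 21.9 and 28.0 ppm in Nmnat1 knockdown libraries and at 6.76, 7.88 and 9.71 ppm in Nmnat2 knockdown libraries (1.44 ± 0.28, adjusted p = 0.0277). Scramble libraries lay between the arms, at 11.05, 17.3 and 11.3 ppm, and neither arm was called against them (0.82 ± 0.28, adjusted p = 0.330, for Nmnat1 knockdown and -0.62 ± 0.28, adjusted p = 0.287, for Nmnat2 knockdown). The call of Kcnab3 was lost when any one of C3, N1_1, N1_2, N1_3, N2_1 or N2_3 was left out. Without N2_2, 11 of the 57 members were called between the arms, beside 2904 of all 22233 genes. Kcne1l, Kcnab3, Kcnv2, Kcnj13 and Kcnn2 were higher in Nmnat1 knockdown cells and Kcna2, Kcnab2, Kcnip1, Kcnj10, Kcnmb4 and Kcnn1 lower. Kcnab3 shares exonic sequence with an antisense gene, Kcnab3os, and the libraries did not mark the strand, so the reads of such pairs cannot be told apart. The same holds for opposite-strand genes at Kcnab1, Kcnd3, Kcne3, Kcnh3, Kcnj6, Kcnj13, Kcnk1, Kcnk2, Kcnk3, Kcnma1, Kcnmb4, Kcnn1, Kcnn2 and Kcnq5, whereas none was annotated at Kcne1l, Kcne2, Kcnv2, Kcnj10 or Kcna2.

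**Figure D3:**
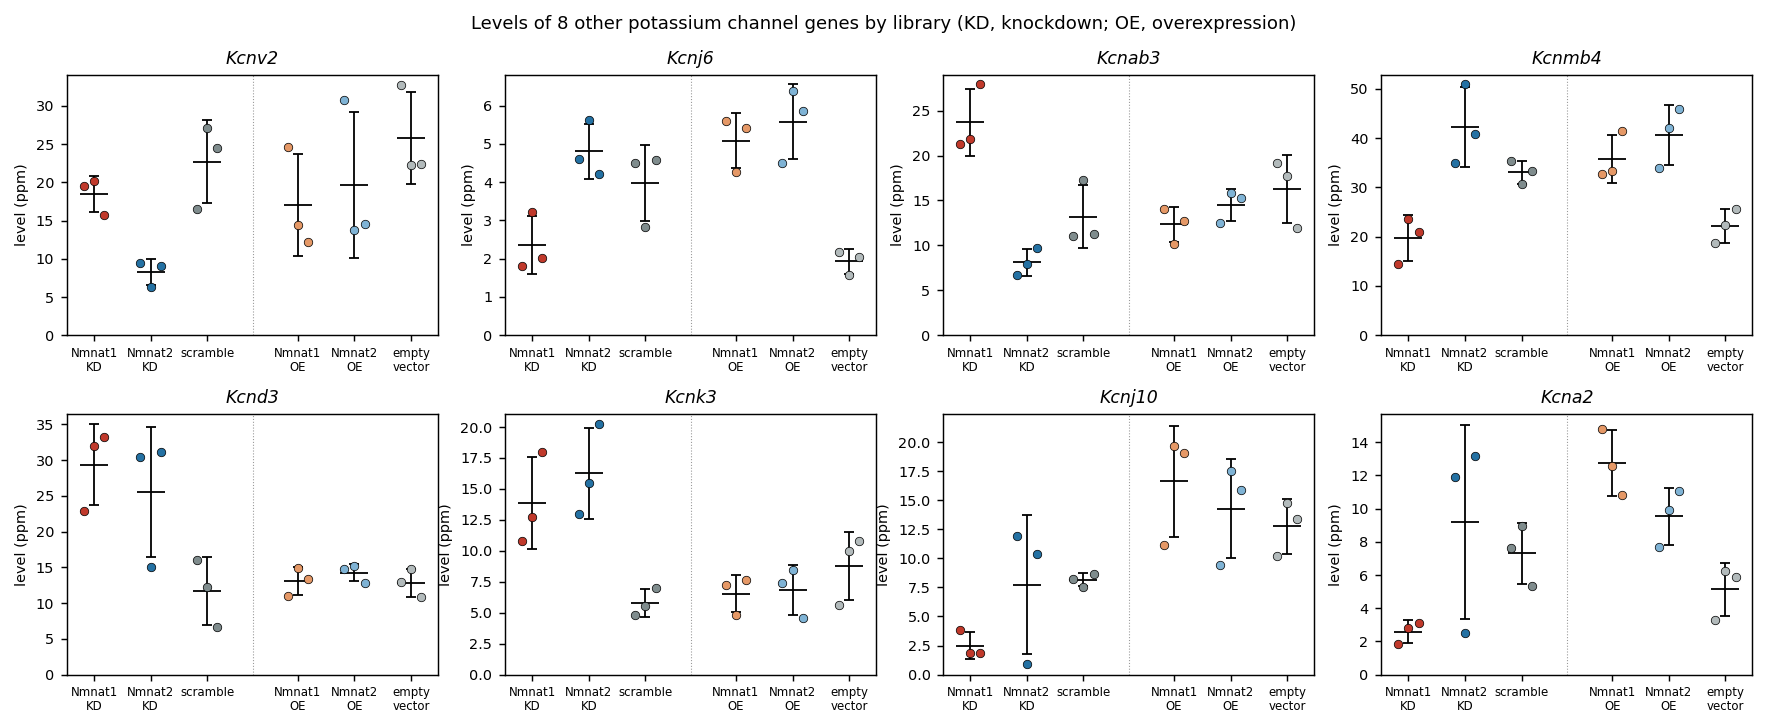
Level in ppm (vertical axes, linear from 0, scaled per gene) of 8 further potassium channel genes in each library (points), with the mean and SD of each group of 3 (bars), for the knockdown table (left of the dotted line) and the overexpression table. Kcnv2 is lowest in Nmnat2 knockdown (6.30 to 9.46 ppm), Kcnk3 lies above scramble in both knockdown groups, and in Kcnj10 and Kcna2 one Nmnat2 knockdown library, N2_2, lies far below the other two.

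In Nmnat1 overexpression cells 0 of 55 tested members were called against the empty vector by limma, where 0.121% of all 20725 genes were, and 8 had an unadjusted p under 0.05, where 9.57% of all genes did. These were 5 higher, against 4.44% of all genes, and 3 lower, against 5.13%. In 9 members every library lay above the empty vector and in 5 every one lay below, where 17.8% of all genes did not overlap, 7.74% higher and 10.1% lower. The median log2 fold change was -0.01 over the members and -0.04 over all genes. Without the libraries numbered 1, 6 of the 55 members were called, beside 1666 of all 20725 genes. Kcna2, Kcnip3 and Kcnmb4 were higher and Kcne1l, Kcne2 and Kcnv2 lower.

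In Nmnat2 overexpression cells 1 of 55 tested members was called, Kcne2, where 0.55% of all genes were called and 0.347% were called lower. At an unadjusted p under 0.05 there were 10 members, 7 higher and 3 lower, where 10.3% of all genes passed, 5.01% higher and 5.27% lower. In 12 members every library lay above the empty vector and in 3 every one lay below, where 16.3% of all genes did not overlap, 8.6% higher and 7.73% lower. The median log2 fold change was 0.19 over the members and 0.06 over all genes. Without the libraries numbered 1, 5 of the 55 members were called, beside 1222 of all 20725 genes. Kcnip3, Kcnj6 and Kcnmb4 were higher and Kcne1l and Kcne2 lower. Between Nmnat1 and Nmnat2 overexpression 0 members were called by limma, where 0.0193% of all genes were, and 1 (Kcne1l) had an unadjusted p under 0.05, where 4.46% of all genes did.

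Kcnmb4 was at 32.7, 33.2 and 41.5 ppm in Nmnat1 overexpression libraries, at 34.0, 42.1 and 45.8 ppm in Nmnat2 overexpression libraries and at 18.8, 22.3 and 25.7 ppm with the empty vector. Both groups lay above the empty vector, without a call (0.67 ± 0.17, adjusted p = 0.173, and 0.84 ± 0.17, adjusted p = 0.0620, and 0.0428 and 0.0168 without the libraries numbered 1). With the replicate block Kcnmb4 was called in both groups. Kcna2 was at 14.8, 12.6 and 10.8 ppm in Nmnat1 overexpression libraries, at 7.68, 9.93 and 11.04 ppm in Nmnat2 overexpression libraries and at 3.31, 6.24 and 5.90 ppm with the empty vector. Changes were 1.19 ± 0.26 (adjusted p = 0.121) and 0.80 ± 0.26 (adjusted p = 0.269), with no overlap in either group.

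Kcnj6, which encodes the G protein-gated rectifier GIRK2, was at 5.58, 4.25 and 5.41 ppm in Nmnat1 overexpression libraries, at 4.49, 6.39 and 5.86 ppm in Nmnat2 overexpression libraries and at 2.17, 1.57 and 2.05 ppm with the empty vector. All overexpression libraries lay above the empty vector (1.05 ± 0.26, adjusted p = 0.166, and 1.16 ± 0.26, adjusted p = 0.0947). Kcnip3, which encodes the calcium-binding protein KChIP3 of Kv4 channels, was at 9.95, 17.9 and 19.5 ppm in Nmnat1 overexpression libraries, at 9.08, 20.4 and 19.2 ppm in Nmnat2 overexpression libraries and at 9.46, 7.56 and 8.603 ppm with the empty vector. Its libraries numbered 1 were at the level of the empty vector while the other overexpression libraries were not.

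Under Nmnat1 overexpression 5 of 55 tested members lay wholly below the empty vector, where 10.1% of all genes did. Among them, Kcnab1, a Kv1 beta subunit, was at 5.92, 2.15 and 3.55 ppm in Nmnat1 overexpression libraries and at 8.15, 6.41 and 6.38 ppm with the empty vector (-0.78 ± 0.32, adjusted p = 0.465). Kcnab2 was at 33.4, 34.6 and 35.4 ppm in Nmnat1 overexpression libraries and at 40.0, 45.2 and 42.9 ppm with the empty vector (-0.30 ± 0.16, adjusted p = 0.627). Kcnv2 overlapped the empty vector in both groups. None of these 3 genes was called.

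**Figure D4:**
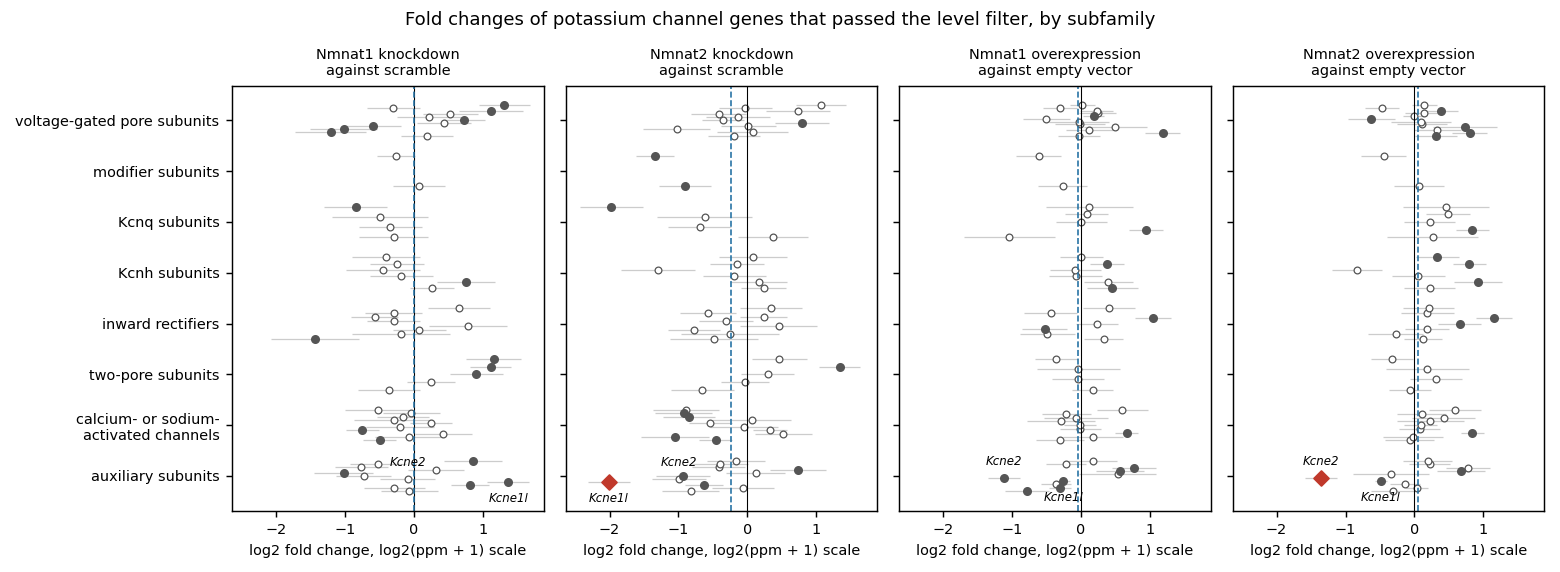
Log2 fold change on the log2(ppm + 1) scale (horizontal axes, bars are SE) of the potassium channel genes that passed the level filter, by subfamily (rows), for the 4 comparisons with a control; filled points do not overlap between the groups, red diamonds are called at an adjusted p under 0.05, and the dashed line is the median of all genes tested. Kcne1l in Nmnat2 knockdown (-2.01) and Kcne2 in Nmnat2 overexpression (-1.35) are the called points.

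Some photoreceptor markers were also called lower in the groups where Kcne1l or Kcne2 was. Of all genes, 0.36% were called lower in Nmnat2 knockdown cells and 0.347% in Nmnat2 overexpression cells. In Nmnat2 knockdown cells 9 of 9 rod genes had a fold change below 0, 3 of them called (Nr2e3, Pde6b and Prph2), with a median of -1.36, and 2 of 8 cone genes were called lower (Gnat2 and Opn1sw, list median -1.22). The rod genes summed to 1874, 4406 and 1866 ppm in Nmnat2 knockdown libraries, with N2_2 the highest, and to 5827 to 6068 ppm in scramble libraries. The cone genes summed to 855, 4120 and 806 ppm in Nmnat2 knockdown libraries and to 2244 to 2736 ppm in scramble libraries, so N2_2 lay above scramble and the other 2 below. Gngt2 made up most of these cone sums, at 752 to 4030 ppm over the libraries of the knockdown table. Each other cone gene reached at most 154 ppm there. The 4 photoreceptor precursor genes (Crx, Otx2, Prdm1 and Neurod1), of which 0 were called, summed to 3515, 2371 and 3469 ppm in Nmnat2 knockdown libraries and to 3457 to 3704 ppm in scramble libraries, with overlap. In Nmnat2 overexpression cells 1 of 9 rod genes (Rcvrn, list median -0.97) and 3 of 8 cone genes (Gnat2, Opn1sw and Pde6h, list median -0.88) were called lower, with rod sums of 2667 to 3680 ppm against 5688 to 6185 ppm with the empty vector. In Nmnat1 overexpression cells the medians were -0.82 and -0.83 with no call, and the rod sums were 2725 to 5032 ppm. In Nmnat1 knockdown cells, where Kcne1l was high, rod sums were 6146 to 6213 ppm, just above the scramble range, while the median over the rod genes was -0.26 and 0 of 9 were called. Retinal pigment epithelium markers (4 genes, 2 tested, 0 called against scramble) summed to 24.4 to 31.6 ppm in Nmnat1 knockdown libraries, to 4.20 to 7.07 ppm in Nmnat2 knockdown libraries and to 8.70 to 13.5 ppm in scramble libraries. These ranges did not overlap, and in the knockdown table their order was that of Kcne1l. The 2 tested markers went opposite ways in Nmnat1 knockdown cells, 1 with a fold change above 0 and 1 below. The sum in Nmnat1 overexpression libraries, 5.01 to 7.77 ppm, lay below every empty-vector library, as Kcne1l did. With Nmnat2 overexpression the sum spanned 3.87 to 14.2 ppm, on both sides of the empty-vector libraries, where Kcne1l lay wholly below. Tyrp1, a pigment synthesis gene, made up most of the sum in Nmnat1 knockdown libraries, at 23.9, 21.8 and 28.1 ppm, and was called higher there than in Nmnat2 knockdown libraries, at 5.80, 3.78 and 4.20 ppm. Bipolar cell markers (5 genes, 3 tested, 0 called) summed to 43.4 to 46.9 ppm in Nmnat1 knockdown libraries, to 25.4 to 79.0 ppm in Nmnat2 knockdown libraries, where N2_2 was the lowest, and to 73.1 to 84.0 ppm in scramble libraries. The part of these marker lists in the levels of the potassium channel genes was not tested.

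Inner retinal markers also differed. The amacrine and horizontal cell genes summed to 53.5 to 59.2 ppm in Nmnat1 knockdown, 262 to 569 ppm in Nmnat2 knockdown and 149.8 to 173 ppm in scramble libraries, and to 158 to 331 ppm in Nmnat1 overexpression, 116 to 259 ppm in Nmnat2 overexpression and 78.7 to 93.4 ppm in empty-vector libraries. Among the 9 genes, Calb2 was the called one against a control, lower in Nmnat1 knockdown cells and higher in Nmnat2 knockdown and Nmnat2 overexpression cells. Of all genes, 19 of 22233 were called lower in Nmnat1 knockdown and 17 of 22233 higher in Nmnat2 knockdown cells. In Nmnat2 overexpression cells 42 of 20725 were called higher. Progenitor genes summed to 147 to 155 ppm in Nmnat1 knockdown, 204 to 484 ppm in Nmnat2 knockdown and 353 to 361 ppm in scramble libraries. Against scramble 0 of 7 were called in Nmnat1 or Nmnat2 knockdown cells, where 0.144% and 0.436% of all genes were. Kcna2 and Kcnmb4 lay below scramble in Nmnat1 knockdown libraries and above the empty vector in both overexpression groups, as did the amacrine and horizontal sum. In Nmnat2 knockdown libraries they parted: the sum lay wholly above scramble, whereas Kcnmb4 overlapped it. Kcna2 lay above scramble there except in N2_2, where it lay below. The part of these markers in those levels was not tested.

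Of 27 partner genes that act with potassium channels or share their currents, 25 passed the filter in the knockdown table and 23 in the overexpression table. Lrrc38, an auxiliary subunit of BK channels, was chosen with its earlier result known. It was at 17.1, 19.2 and 14.9 ppm in Nmnat1 knockdown libraries and at 2.96, 3.43 and 4.37 ppm in scramble libraries (1.99 ± 0.30, adjusted p = 0.0437). It was the 1 partner gene called in Nmnat1 knockdown cells, where 0.144% of all genes were called. In Nmnat2 knockdown and Nmnat1 overexpression cells 0 were called, where 0.436% and 0.121% of all genes were. In Nmnat2 overexpression cells 2 were called lower, where 0.347% of all genes were. Between the knockdown arms 3 were called higher in Nmnat1 knockdown cells, where 1.34% of all genes were.

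Atp1b2, which encodes a beta subunit of the sodium-potassium ATPase, fell in Nmnat2 overexpression cells. It was at 489, 433 and 419 ppm in Nmnat2 overexpression libraries and at 678, 647 and 609 ppm with the empty vector (-0.53 ± 0.10, adjusted p = 0.0498). It was also higher in Nmnat1 knockdown than in Nmnat2 knockdown cells, by 1.16 ± 0.20 (adjusted p = 0.0190), as was Lrrc38 (2.55 ± 0.30, adjusted p = 0.00351). Among the cyclic-nucleotide-gated channel genes, Cngb1 of rods was at 78.8, 202 and 80.1 ppm in Nmnat2 knockdown libraries and at 205, 248.7 and 217 ppm in scramble libraries (-1.03 ± 0.31, adjusted p = 0.149). The pacemaker channel gene Hcn4 was at 6.66, 9.49 and 10.6 ppm in Nmnat1 overexpression libraries and at 3.69, 3.09 and 3.31 ppm with the empty vector (1.16 ± 0.30, adjusted p = 0.177). Cngb3, a subunit of the cone channel, was at 9.94, 8.97 and 8.51 ppm in Nmnat2 overexpression libraries and at 14.97, 14.01 and 14.03 ppm with the empty vector (-0.60 ± 0.17, adjusted p = 0.18). Amigo1, an auxiliary subunit of Kv2 channels, overlapped its control in all 4 control comparisons.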

How the data were processed

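Sorted cells gave total RNA, of which 1 ng entered SMART-Seq v4 cDNA synthesis, followed by Nextera DNA Flex libraries that keep no strand, per the labels' protocols. The submitters' processing notes list Salmon 0.11.3, sleuth 0.30.0 and GRCm38.p6 but not what each did. The authors deposited a signal scaled to transcript length under the name TPM, with column sums of 14.4 to 29.6 (knockdown) and 17.3 to 26.2 (overexpression) times 1000000. Per library, 70.5% to 84.5% of low values were whole multiples of 1 read (tolerance 0.1, 20% by chance), which gave relative depth but not whole reads for nearly all genes, so no count test was run. Each table's incomplete last line was left out. The knockdown columns (C1 to C3, N1_1 to N2_3) show the group of a library only. The titles of 2 samples name Nmnat3, while their other labels name Nmnat2, which was followed.

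Values were divided by the column sum (ppm). The tests used genes reaching 1 ppm in at least 3 of a table's 9 libraries. The model, on log2(ppm + 1), was made in limma 3.58.1 (R 4.3.3, 3 groups in 1 fit, mean-variance trend, two-sided, Benjamini-Hochberg over all genes of a comparison, threshold 0.05). No test crosses the tables. The fit was tested on simulated data. Coordinates are from GENCODE M21. Exact permutation tests (scipy 1.17.1) were two-sided. Figures were drawn with matplotlib 3.10.9.

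The members, gene lists and alternatives were chosen with earlier results of these data known. Named genes were Kcne1l, Kcne2, the target genes, called members, the 10 most abundant members per table and the first 2 per subfamily, the 4 highest and 4 lowest fold changes per control comparison among members with at least 5 ppm and no overlap, and partner genes called or with the 3 smallest p. Kcne3, Kcne4, Kcnh3, Kcnip1, Kcnk2, Kcnk7, Kcnn2 and the members below 1 ppm were named after their values were seen. Some genes that the rule names are not reported here. Alternatives changed the pseudocount, filter, scaling, fit, trend, replicate block and libraries.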

Additional observations from a re-analysis of the deposited data

Results flagged for a closer look

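For Kcne1l and Kcnab3 the effects of the knockdown arms differed by a test of the difference itself, since the arms were set against the same scramble libraries. Kcne1l was higher in Nmnat1 than in Nmnat2 knockdown cells by 3.38 on the log2 scale (limma adjusted p = 0.00130), with all 3 Nmnat1 knockdown libraries above and all 3 Nmnat2 knockdown libraries below scramble. Kcnab3 was higher by 1.44 (limma adjusted p = 0.0277), with the same arrangement of all 6 libraries.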

How the results depend on the processing

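In 30 pairs of a named potassium channel gene and a control comparison, 555 values under alternatives were computed. Of these, 501 kept the direction and the side of the threshold, 22 lost the call, 29 gained one and 3 reversed. The pairs called in the main fit were Kcne1l in Nmnat2 knockdown and Kcne2 in Nmnat2 overexpression cells. Kcne1l kept its call in 5 of 18 alternatives and Kcne2 in 10 of 19. All 22 losses fell on these pairs, since the others had no call to lose. The reversals were of Kcne2 in Nmnat1 knockdown cells, which was not called, at 0.10, 0.02 and 0.22 without C2, C3 and N1_1 (range -0.38 to 0.22 with a library left out). Counts of called members that moved were as follows, each beside the count of all genes called under the same setting. In Nmnat1 knockdown cells there were 2 of 57 with the 2 groups alone, beside 969 of 22233 genes. With a library left out there were 0 to 6, beside 0 to 1802 genes. In Nmnat2 knockdown cells there were 0 without a filter (beside 32 of 33183 genes) and with median-of-ratios scaling (beside 99 of 22233). There were also 0 with the 2 groups alone, without the trend and with the replicate block, each beside 0. There were 2 of 27 with a filter of 5 ppm (beside 190 of 12638) and 2 of 57 with quantile normalization (beside 173). With a library left out there were 0 to 7, beside 0 to 3331. In Nmnat1 overexpression cells there were 2 of 55 with the replicate block, beside 187 of 20725 genes. Without all libraries numbered 1 there were 6 (beside 1666), and with a library left out 0 to 1 (beside 3 to 271). In Nmnat2 overexpression cells there were 0 without a filter, beside 48 of 33111 genes. There were also 0 with median-of-ratios scaling (beside 71 of 20725) and without the trend (beside 5). There were 3 of 27 with a filter of 5 ppm (beside 181 of 12088) and 3 of 55 with the replicate block (beside 269). Without all libraries numbered 1 there were 5 (beside 1222), and with a library left out 0 to 3 (beside 3 to 301). Between the knockdown arms there were 4 of 27 with a filter of 5 ppm (beside 618 of 12638 genes). With median-of-ratios scaling there were 3 of 57 (Kcnmb4 in addition to the 2), beside 588 of 22233 genes. There was 1 with the 2 groups alone, without the trend and with the replicate block (beside 108, 162 and 183). With a library left out there were 1 to 11, beside 80 to 2904. Median-of-ratios scaling also moved the split of all called genes, to 201 higher and 387 lower, against 299 and 159, between the knockdown arms, to 66 and 33, against 17 and 80, in Nmnat2 knockdown cells, and to 8 and 1, against 19 and 6, in Nmnat1 overexpression cells. The replicate block called Kcne2 and Kcnmb4 in both overexpression groups and Kcne1l in Nmnat2 overexpression cells. The causes were not tested. Partner and marker genes were not recomputed under alternatives. Deviations of same-numbered libraries correlated at -0.04 to 0.03 in the knockdown table and at 0.03 to 0.22 between overexpression arms and empty vector, so numbers were not taken to pair them. The libraries numbered 1 did go together, however. Library v1 correlated at 0.21 and 0.22 with N1_1 and N2_1, and at -0.16 to -0.12 with the arm libraries of other numbers. Between the overexpression arms, where every same-numbered pair was at 0.14 to 0.46, the replicate block left 0 calls, as without it.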
